A study of Homo sapiens with 19 samples.

Results

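The clustered histone genes are the 71 genes whose symbol begins with HIST, a cluster number and H in the gene list of the first TGFB1-control library, out of 33538 genes listed there. They were followed in the other libraries by Ensembl identifier, since 68 of them were listed in every file; HIST2H3PS2, HIST1H3B and HIST1H3C were missing from the gene lists of the OA, OA-control and untreated libraries. By histone, 6 encode the linker histone H1, 17 H2A, 18 H2B, 15 H3 and 15 H4. By position, 55 lie in the HIST1 cluster on chromosome 6, 12 in HIST2 and 3 in HIST3 on chromosome 1, and 1 in HIST4 on chromosome 12.

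Human liver organoids made from the wild-type pluripotent stem cell line W01 (WiCell) were dissociated with trypsin, and their single cells were sequenced with the droplet kit 10x Genomics 3′ v3, which counts unique molecular identifiers (UMIs, 1 per captured transcript). The 19 libraries form 9 groups. Untreated organoids on ultra-low attachment plates (ULA) were taken on day 21 (n = 3) and day 34 (n = 2). Organoids on an orbital shaker (OS) were taken on day 25 in 7 groups of 2 libraries: untreated, TGFB1 at 10 ng/ml, PA at 500 µM, OA at 500 µM, and a separate control for each of these 3 agents. The growth protocol gives 20 days of culture and then 5 days of treatment for shaker organoids, without naming an agent. The labels leave the abbreviations PA and OA unexplained, and the treatment protocol names TGF-β1 and PA but not OA. The day 34 and shaker organoids went through 1 further wash and 10 further minutes in trypsin, which the day 21 organoids did not. The labels do not say whether replicate libraries came from separate cultures, so the p-values measure only the spread between these libraries, which may be technical. All of them come from 1 cell line.

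Replication-dependent histone genes supply the proteins that package newly made DNA, and their transcription and mRNA stability are tied to S phase. Their genes have few or no introns, and most of their mRNAs end in a conserved stem-loop bound by SLBP instead of in a poly(A) tail. A 3′ assay that primes on poly(A) therefore reads them only in part, through polyadenylated forms and stretches of A within the message. Some of the genes also make polyadenylated mRNA in cells that have left the cell cycle.

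Barcodes with 500 or more genes and no more than 20% of counts from mitochondrial genes were kept as cells, which left 120240 of 138053 barcodes. Each library kept 3089 to 12427 cells and 6880807 to 91184130 UMIs; PA-control replicate 1 and TGFB1-control replicate 1 were the shallowest, at 6880807 and 15815116. Over the 171 pairs of libraries, 1 to 32 barcodes were shared. Cells with at least 1 UMI of TOP2A or MKI67, a topoisomerase and a nuclear antigen of dividing cells, were called cycling (23924 cells), and the rest other cells (96316). Cycling cells held more UMIs than other cells at the median in 18 of 19 libraries, so the split also follows depth. UMIs of each library were summed over all cells, over cycling cells and over other cells, and expressed as CPM, the usual scaling of counts to a fixed library total. Markers of hepatocytes (12 genes, such as ALB and TTR) were detected in every group, summing to as little as 97.8 CPM in ULA day 34 and as much as 23909 CPM under PA, and pluripotency markers summed to at most 57.5 CPM. CPM here counts molecules caught at the 3′ end and is not corrected for length or for how much of an mRNA carries a poly(A) tail, so an order of genes by CPM is an order of captured UMIs only.

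The kept cells held 1205523 histone UMIs, which is between 464 and 1887 CPM in a library (median 1228). HIST1H4C (H4C3, a histone H4 gene at chr6:26103933-26104337 on the plus strand, 1 exon, GRCh38) gave 668444 of them, or 55.45%. The H1 genes gave 26.34%, H2A 9.58%, H2B 5.105% and H3 1.65%, and the 10 genes with the most counts gave 90.6%. After HIST1H4C, at a mean of 651 CPM over the 19 libraries, came 3 linker histone genes: HIST1H1C at 90.0 CPM, HIST1H1E at 88.0 and HIST1H1D at 81.2. HIST1H2AC (48.6 CPM), HIST1H1B (42.6), HIST3H2A (23.2), HIST1H2BD (12.5), HIST1H4H (11.1) and HIST2H2AC (10.7) completed the 10. At the other end, 15 members had under 100 UMIs in all libraries together. HIST2H3PS2 and HIST1H4G had 0. HIST1H1T, the testis H1, had 12 and HIST1H1A had 17. Reads of near-identical copies (HIST2H4A and HIST2H4B, HIST2H2AA3 and HIST2H2AA4, HIST2H3A, HIST2H3C and HIST2H3D) may be split or lost by the counting, so their values are uncertain. The annotated span of HIST1H2BC (chr6:26086317-26123926, minus strand) crosses HIST1H4C on the other strand.

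The stem-loop that marks the end of a replication-dependent histone mRNA was looked for as a run of 16 bases (GGC, any base, CTTTT, any base, AG, any base, GCC) on the coding strand within 150 bases after the stop codon (GRCh38, GENCODE 44). It was found in 62 of the 66 members with an entry there, 23 to 63 bases after the stop (median 36), and not in HIST1H3E, HIST1H2BI, HIST1H2AK or HIST1H4L. Only 6 spellings occurred. The stem-loops of 5 members that later results turn on are shown with 5 bases on each side, the 16-base match in capitals and the sequence of the DNA strand that reads as the mRNA.
HIST1H4C: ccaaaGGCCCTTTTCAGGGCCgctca
HIST1H1E: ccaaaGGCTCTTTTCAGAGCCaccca
HIST1H2AC: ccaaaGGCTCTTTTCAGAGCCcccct
HIST2H2BE: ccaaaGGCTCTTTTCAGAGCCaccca
HIST1H2BC: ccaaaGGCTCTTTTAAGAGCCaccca
The spelling in HIST1H4C occurred in 10 members, all H4 genes, and that of HIST1H1E in 36 members of H1, H2A, H2B and H3. HIST1H1E, HIST1H2AC and HIST2H2BE thus carry the same 16 bases, although their counts in cycling cells went different ways. Their annotated ends also differed. The longest annotated transcript of HIST1H4C and of HIST1H1E ended 5 bases past the stem-loop, whereas annotated transcripts of HIST2H2BE reached 1729 bases past it, of HIST1H2AC 14432 bases and of HIST1H2BC 37155 bases. These are distances along the genome and not lengths of mRNA. Transcripts of HIST1H2AC and HIST1H2BC have up to 2 and 3 exons, so introns can be included.

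Upstream sequence differed by histone type. RefSeq start sites (GRCh38.p14, 250 bases before to 50 after the start) were matched for 61 members, and 4 motifs were searched on both strands. The octamer ATTTGCAT, the binding motif of POU-domain factors such as OCT1, was present in 11 of 14 H2A and 14 of 18 H2B promoters, in 1 of 10 H3 promoters and in 0 of 13 H4 and 0 of 6 H1 promoters, against 1.8% of all 27305 promoters. AAACACA, known as the H1 box, was present in all 6 H1 promoters and in 9 of the 61, against 5.76% of all promoters. CCAAT was present in every H1, H2A, H2B and H3 promoter and in 3 of 13 H4 promoters (35.7% of all), and TATAAA in 40 of 61 (3264 of the 27305). The H2A and H2B genes of 12 head-to-head pairs start 169 to 250 bases apart. Windows of such partners share sequence, so 1 octamer can be counted for both and these promoters are not all separate. A match is a description of these letters and does not show that a factor binds. The 250 bases before the start of 4 members are shown. HIST1H1E and HIST1H1B are 2 of the 4 tested H1 genes, all of which were higher under OA than in its control. Against the untreated libraries, in other cells, HIST1H1B was lower under OA and HIST1H1E was not called. A part of the H1 box in these changes was not tested. HIST1H2AC and HIST2H2BE each share a short upstream region with a neighbour that moved otherwise in cycling cells. Capitals mark the H1 box in the first 2 and the octamer (ATTTGCAT or its reverse complement ATGCAAAT) in the last 2. Each sequence is given on the gene's own strand.
HIST1H1E, chr6:26156079-26156328, plus strand: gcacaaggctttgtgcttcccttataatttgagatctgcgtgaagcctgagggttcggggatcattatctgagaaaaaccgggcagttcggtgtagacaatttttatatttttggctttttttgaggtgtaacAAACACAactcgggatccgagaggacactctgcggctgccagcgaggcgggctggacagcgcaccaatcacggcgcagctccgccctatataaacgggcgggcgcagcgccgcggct
HIST1H1B, chr6:27867589-27867838, minus strand: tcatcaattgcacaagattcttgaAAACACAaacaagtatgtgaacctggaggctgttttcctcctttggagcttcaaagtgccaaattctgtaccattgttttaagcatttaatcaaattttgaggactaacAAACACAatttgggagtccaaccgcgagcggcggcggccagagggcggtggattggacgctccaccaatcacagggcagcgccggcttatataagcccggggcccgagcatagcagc
HIST1H2AC, chr6:26123922-26124171, plus strand: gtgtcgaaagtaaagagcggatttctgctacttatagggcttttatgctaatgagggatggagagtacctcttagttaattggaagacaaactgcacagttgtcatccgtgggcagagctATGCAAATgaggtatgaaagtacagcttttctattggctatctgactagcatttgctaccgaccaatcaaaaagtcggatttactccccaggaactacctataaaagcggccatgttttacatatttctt
HIST2H2BE, chr1:149886683-149886932, minus strand: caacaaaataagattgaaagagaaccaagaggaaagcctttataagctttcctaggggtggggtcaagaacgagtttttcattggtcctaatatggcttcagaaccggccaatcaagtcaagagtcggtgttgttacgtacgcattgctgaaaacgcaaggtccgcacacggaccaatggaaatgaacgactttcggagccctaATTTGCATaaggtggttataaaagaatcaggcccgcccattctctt
The H1 box began 117 bases before the start in both H1 genes, with a further match 226 bases before the start in HIST1H1B.

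**Figure D1:**
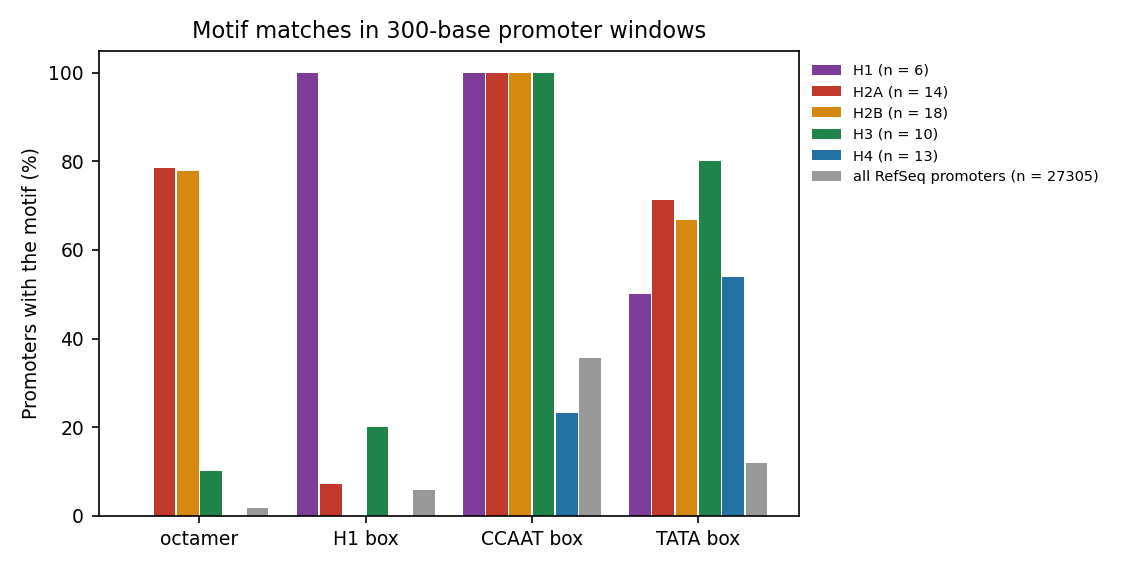
Share of promoters (percent) that hold each of 4 motifs in members of each histone type and in all RefSeq promoters of the same length. The octamer was found in 11 of 14 H2A and 14 of 18 H2B promoters and the H1 box in 6 of 6 H1 promoters, against 1.8% and 5.76% of all promoters. Windows of head-to-head H2A and H2B genes share sequence, so their matches are not all separate.

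Histone transcripts made up more of the captured UMIs of cycling cells than of those of other cells in every library. Summed over the members, cycling cells held 864 to 5963 CPM (median 2808) and other cells 233 to 1163 CPM (median 768), and the ratio within a library ran from 2.54 to 7.23. The highest sums in cycling cells, 5963 and 5786 CPM, were in the TGFB1 controls and the lowest, 864, in ULA day 21 replicate 2. Other cells still held histone UMIs, and which part of those comes from cells in S phase without a UMI of either marker gene, or from free RNA in the droplets, was not tested.

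**Figure D2:**
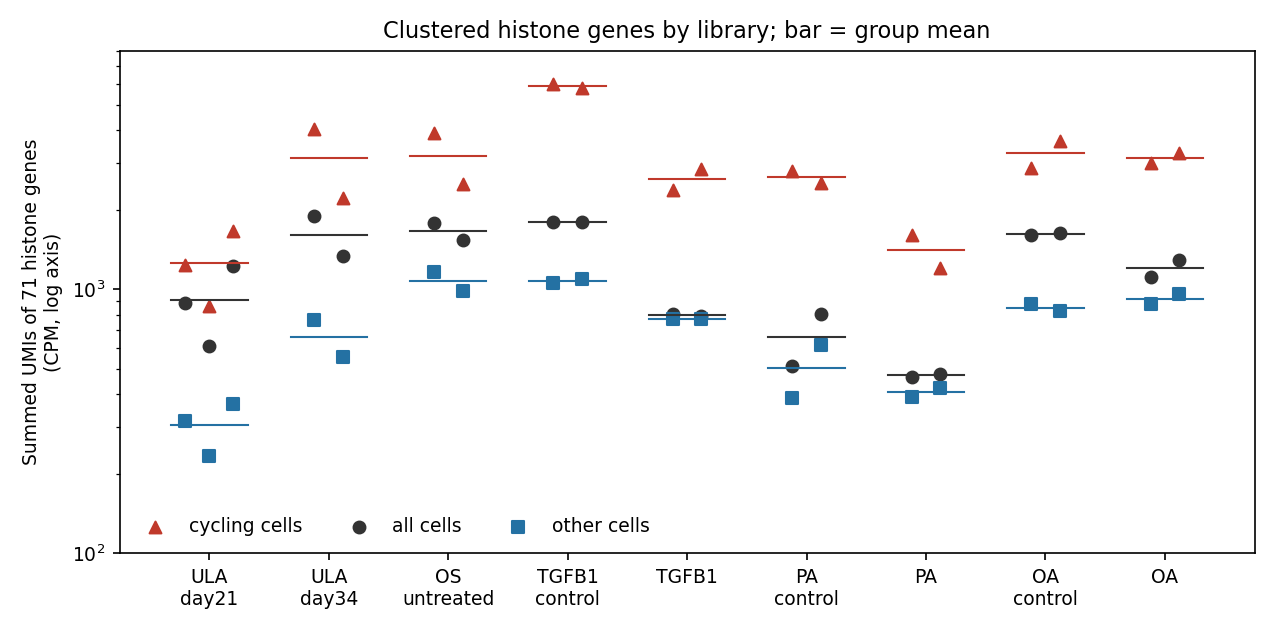
Summed CPM of the 71 members in each library (points), by group, for cycling cells, all cells and other cells. The OA, OA-control and untreated libraries list 68 of the 71. Cycling cells lie above other cells in 19 of 19 libraries, with ratios from 2.54 to 7.23.

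Gene by gene, cycling and other cells were compared over the 19 libraries with the library as a block (edgeR's quasi-likelihood test, adjusted p under 0.05). Among all 15884 genes tested, 15.9% were higher and 32.7% lower in cycling cells, and their median log2 fold change was -0.09. Of the 71 members, 44 had counts enough to be tested, and of these 34 were higher, 4 lower and 6 not called, with a median log2 fold change of 1.39. With each cell thinned to 1000 UMIs and shallower cells left out, 24 members could be tested, of which 18 were higher and 4 lower. Both TGFB1 libraries dropped out of that fit, with 39 and 27 thinned cycling cells where 50 were needed. No share over all genes was taken for it.

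HIST1H4C was higher in cycling cells in 19 of 19 libraries. It ranged from 591 to 5026 CPM (median 1412) in cycling cells and from 93.0 to 679 CPM (median 277) in other cells, a log2 fold change of 2.49 ± 0.11 (SE, adjusted p = 2.43e-15). The ranges of the 2 classes overlap only because libraries differ in level.

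The linker histone genes, whose products bind the DNA between nucleosomes, differed in how far they separated the classes. HIST1H1B (H1-5) had a median of 101 CPM in cycling and 4.61 CPM in other cells, a log2 fold change of 4.03 ± 0.16 (adjusted p = 7.48e-16, 19 of 19 libraries). HIST1H1D (H1-3) had medians of 180 and 21.2 CPM and rose by 2.40 ± 0.11 in log2. HIST1H1E (H1-4) had medians of 94.1 and 30.0 CPM (log2 fold change 1.40 ± 0.10, 19 of 19 libraries), and HIST1H1C (H1-2) 117 and 69.6 CPM (0.70 ± 0.12, higher in 18 of 19). The 2 remaining H1 genes had too few UMIs to test.

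Among the core histone genes tested, all listed in every file and with enough counts, the largest differences were in HIST1H2AL (log2 fold change 4.33 ± 0.20), HIST1H2AJ (3.83 ± 0.20), HIST1H3G (3.66 ± 0.21), HIST1H3F (3.33 ± 0.17) and HIST1H3J (3.30 ± 0.18). HIST1H2AL, for example, had a median of 4.46 CPM in cycling cells and 0.156 CPM in other cells. HIST1H3G had medians of 19.3 and 1.42 CPM. HIST1H3B, not listed in 6 libraries and so not tested, had means of 15.6 CPM in cycling and 0.5375 CPM in other cells over the 13 libraries that list it.

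Members that were lower in cycling cells encode H2A and H2B. HIST2H2BE (H2BC21) had a median of 2.82 CPM in cycling cells and 7.31 CPM in other cells and was lower in 19 of 19 libraries (log2 fold change -1.03 ± 0.12, adjusted p = 1.6e-07). HIST1H2AC (H2AC6) had medians of 25.3 and 46.5 CPM (-0.62 ± 0.09, adjusted p = 3.45e-06) and HIST1H2BD (H2BC5) 9.44 and 14.1 CPM (-0.54 ± 0.09, adjusted p = 5.13e-05), each lower in 18 of 19 libraries. HIST3H2A (H2AC25) was lower by less, with medians of 18.1 and 19.2 CPM (-0.24 ± 0.06, adjusted p = 0.00309), and in 11 of 19 libraries only. With the 14 shaker libraries alone its log2 fold change was -0.04 (adjusted p = 0.827). The next 2 members in that order were not called: HIST1H2BG had medians of 7.93 and 6.42 CPM (-0.11 ± 0.10, adjusted p = 0.390, lower in 10 of 19 libraries), and HIST2H2AA4, whose near-identical copy makes its counts uncertain, was at -0.01 ± 0.16 (adjusted p = 0.961).

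**Figure D3:**
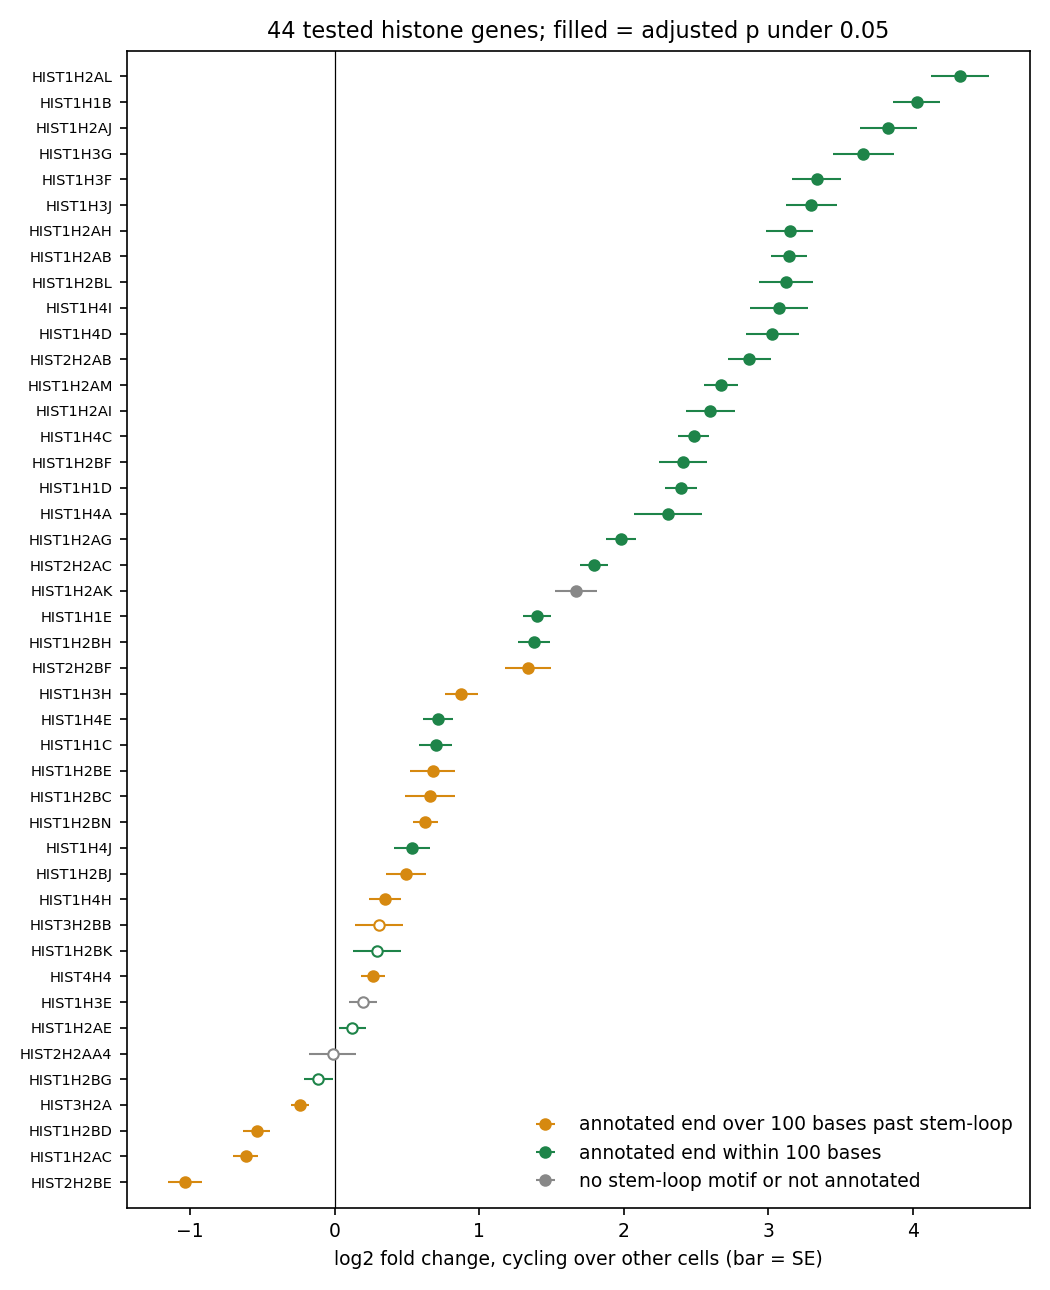
Log2 fold change of cycling over other cells for each tested member with its approximate SE. Of 44 tested members 34 were higher, up to 4.33 for HIST1H2AL, and HIST2H2BE was the lowest at -1.03.

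All 4 members that were lower in cycling cells have annotated transcripts that run past the stem-loop. Of the 16 members with a transcript reaching over 100 bases past it, 13 were tested, with 8 higher, 4 lower and 1 not called, a median of 0.35 and a range from -1.03 to 1.34. Of the 46 members whose annotated transcripts all end within 100 bases of it, 28 were tested, with 25 higher, 0 lower and 3 not called, a median of 2.54 and a range from -0.11 to 4.33. The distances were taken along the genome from the annotation, introns included, and transcript ends were not measured in these libraries.

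Histone genes often lie head to head and share the sequence between their starts. There were 14 such pairs, 12 of an H2A with an H2B gene (169 to 250 bases apart) and 2 of an H2B with an H3 gene. HIST1H2BO is in 2 of them: the annotated start of HIST1H3J lies inside HIST1H2AM, the nearer partner of HIST1H2BO, so that pair is not a separate one. Both partners could be tested between cycling and other cells in 9 pairs. Both were higher in 4 pairs, and in 2 pairs the partners were called in opposite directions. HIST2H2BE (-1.03) and HIST2H2AC (1.80 ± 0.10, adjusted p = 1.63e-13) start 235 bases apart, and HIST1H2AC (-0.62) and HIST1H2BC (0.66 ± 0.18, adjusted p = 0.00332) start 218 bases apart. HIST2H2AC reached a median of 19.5 CPM in cycling and 5.06 CPM in other cells, the reverse of its neighbour. Its annotated transcript ends 5 bases past the stem-loop.

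Genes that work with the members were counted from lists of 12 replacement histones, 18 histone chaperones and 20 genes of histone mRNA transcription and processing. Of the 11 replacement histones tested, 7 were higher in cycling cells and 2 lower: CENPA, the centromeric H3, was higher by 5.71 ± 0.25, H2AFX by 1.90 ± 0.09 and H2AFZ by 1.36 ± 0.07, while H1F0, the linker histone of resting cells, was lower (-0.30 ± 0.05), as was H3F3B (-0.20 ± 0.04). Of the 18 chaperones 15 were higher and 1 lower, with ASF1B (3.31 ± 0.25) and CHAF1A (2.02 ± 0.15), which deliver H3 and H4 to new DNA, at the top. Of the 20 transcription and processing genes 14 were higher and 2 lower. CCNE2 (1.88 ± 0.24) and CCNE1 (1.19 ± 0.18) encode the cyclins that activate NPAT, the coactivator of histone genes (0.27 ± 0.06), and SLBP was higher by 0.49 ± 0.08. As a check on the split, 33 of 34 S phase and 38 of 38 G2/M marker genes were higher in cycling cells.

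Within cycling cells, those leaning to S phase were compared with those leaning to G2/M. Cycling cells of each library were split at the median of their S share, the UMIs of the S list over those of both lists, in the 17 libraries with at least 50 cells in each of the 2 sets, which leaves out both TGFB1 libraries. Of 12791 genes tested 16.8% were higher and 15.0% lower in the S-leaning cells. Of 36 members tested, 3 (8.33%) were higher and 5 (13.9%) lower, the second near the share of all genes. HIST1H4C had a median of 1415 CPM in the S-leaning and 1427 CPM in the G2/M-leaning cells, a log2 fold change of -0.02 ± 0.08 (adjusted p = 0.912), higher in 9 libraries and lower in 8. HIST1H4I (0.48 ± 0.13), HIST1H2AH (0.44 ± 0.09) and HIST1H1B (0.28 ± 0.08) were higher in the S-leaning cells.

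HIST1H2BJ (H2BC11) stood lowest in that comparison. Its median was 4.19 CPM in the S-leaning and 8.46 CPM in the G2/M-leaning cells, with 0 of 17 libraries higher and 16 lower (log2 fold change -0.97 ± 0.08, adjusted p = 1.72e-09). HIST1H3H (-0.38 ± 0.09), HIST1H2BN (-0.37 ± 0.10), HIST1H2BH (-0.33 ± 0.07) and HIST1H2AC (-0.21 ± 0.08, adjusted p = 0.0412) were also lower; HIST1H2AC was not called in 14 of 23 settings, with adjusted p up to 0.401. In the 12 shaker libraries of that fit 1 member was lower, and without the library block 0 were higher and 2 lower. Leaving out ULA day 34 replicate 1, PA-control replicate 2 or OA-control replicate 2 gave 5 higher. The same 2 sets did differ in SLBP (0.95 ± 0.06), CCNE2 (2.81 ± 0.14) and CASP8AP2 (0.74 ± 0.06) and, in the other direction, in CENPA (-2.72 ± 0.08). TOP2A and MKI67 are known to be highest late in the cycle, so a cell early in S phase with no UMI of either is counted among the other cells.

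TGFB1, the ligand that drives fibrosis programmes in liver, was compared with its own control. Summed over the members, the 2 TGFB1 libraries held 802 and 794.5 CPM and the controls 1792 and 1790 CPM. Cycling cells made up 1.78% and 0.999% of TGFB1 cells (107 and 69 cells) and 11.8% and 12.2% of control cells. Thinned to 1000 UMIs a cell, these shares were 0.664% and 0.397% against 9.90% and 5.83%. Of all histone UMIs, 5.93% and 4.56% came from cycling cells under TGFB1 and 49.8% and 47.96% in the controls. A fall in the number of cycling cells and less histone RNA per cell cannot be told apart in whole-library sums, so the classes are given after them.

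In all cells, 21 of 53 tested members were lower under TGFB1 and 0 higher; over all 19366 genes 11.3% were lower and 10.9% higher (edgeR). The filter on low counts was met over all 14 shaker libraries, so a tested member can be nearly absent from the 4 compared here: HIST1H3D had 0 UMIs in them and HIST1H2AD 2, and both had nearly all their shaker counts in the OA, OA-control and untreated libraries. Neither was called. Over the 51 tested members with at least 10 UMIs in the 4 libraries the median log2 fold change was -1.13, beside -0.05 for all genes tested. DESeq2 also called 0 higher, with 24 lower, and at an unadjusted p under 0.05, 32 members differed in edgeR's test. No share over all genes was taken for these counts. Without TGFB1 replicate 1 the lower members were 12, and without TGFB1 replicate 2 they were 10. The lower members were 9 H2A, 4 H2B, 3 H3, 4 H4 and 1 H1 genes.

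HIST1H4C was at 446.3 and 453.5 CPM under TGFB1 and at 1330 and 1141 CPM in the controls (log2 fold change -1.25 ± 0.24, adjusted p = 0.00235). HIST1H3G was at 0.749 and 0.357 against 6.01 and 8.07 CPM (-3.48 ± 0.40, adjusted p = 5.1e-05), and HIST1H3H at 1.499 and 2.01 against 11 and 9.66 CPM (-2.35 ± 0.26, adjusted p = 3.72e-05). In each of these 3 genes the groups did not overlap, but how many of all genes did not was not counted. HIST1H2AJ had the largest change, -4.33 ± 0.87, from 0.159 and 0.153 CPM against 6.64 and 1.42 CPM, with controls that differ several-fold between themselves. HIST1H2AI (-3.23 ± 0.73), HIST1H2AL (-2.71 ± 0.52) and HIST1H4I (-2.65 ± 0.65) followed. These changes rest on few UMIs. In TGFB1 replicates 1 and 2, HIST1H2AJ had 7 and 6 UMIs and HIST1H2AI 11 and 6. HIST1H2AL had 9 and 7 there and HIST1H4I 6 and 6. The HIST1H2AI controls also differed, at 3.67 and 1.17 CPM. Among the H1 genes HIST1H1B fell by 2.07 ± 0.41 in log2 (6.54 and 4.34 against 14.2 and 36.2 CPM), whereas HIST1H1D (-0.98 ± 0.34, adjusted p = 0.0529), HIST1H1E (-0.31 ± 0.45) and HIST1H1C (-0.20 ± 0.38) were not called.

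The members were also grouped by their difference between cycling and other cells. Of 18 members with a cycling log2 fold change over 2, 13 were lower under TGFB1 (median -2.23). Of 20 members between 0 and 2, 5 were lower (median -0.80), and of 6 under 0, 2 were lower (median -0.77), where 11.3% of all genes were lower. The grouping was made from these same libraries, and cycling cells are fewer under TGFB1, so the order in whole-library sums is no separate result. In other cells 3 of 16, 4 of 20 and 2 of 6 members were lower in the same groups. Their medians were -0.90, -0.66 and -0.82, 1 of the 20 was higher, and 11.7% of all genes were lower. Differences between these groups were not tested.

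In other cells, the histone sum was 770 and 768 CPM under TGFB1 and 1058 and 1094 CPM in the controls. There 9 of 49 tested members were lower and 1 higher (11.7% and 11.0% of 18940 genes). HIST1H4C was at 424 and 433 against 679 and 567 CPM (-0.34 ± 0.23, adjusted p = 0.309), and the 4 H1 genes lay between -0.48 and 0.11. HIST1H3G (-2.88 ± 0.51, adjusted p = 0.00147), HIST1H3H (-2.13 ± 0.27, adjusted p = 1.26e-04) and HIST1H2AE (-1.66 ± 0.33, adjusted p = 0.00317) fell there too, as did HIST2H2BE (-1.43 ± 0.37, adjusted p = 0.0141), a member that is lower in cycling cells; its call was absent in 2 of its alternatives, with adjusted p up to 0.165. The 1 higher member was HIST1H2BC, at 7.81 and 8.91 against 4.16 and 6.02 CPM (0.85 ± 0.26, adjusted p = 0.0325); it was not called in a fit of these 2 groups alone. Without TGFB1 replicate 1 the lower members were 4 and without replicate 2 they were 5, with 0 higher in each; without TGFB1-control replicate 1 there were also 0 higher, and without TGFB1-control replicate 2 HIST1H2BC was 1 of 2 higher. In the same other cells 28 of 34 S phase markers and 26 of 38 G2/M markers were lower, and their part in the histone result was not tested.

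In the cycling cells 2 of 47 tested members were lower and 0 higher (2.41% and 3.99% of 14921 genes). HIST1H4C was at 1536 and 2010 CPM against 5026 and 4434 CPM (-1.38 ± 0.28, adjusted p = 0.00747), and HIST1H3H at 4.53 and 4.003 against 21.5 and 19.2 CPM (-2.20 ± 0.48, adjusted p = 0.0126). The groups did not overlap in either gene, a property not counted over all genes, and HIST1H3H rests on 6 UMIs in the TGFB1 cells. Without TGFB1 replicate 1 the count was 0, without TGFB1 replicate 2 it was 1, and without TGFB1-control replicate 2 it was 5. In those cells 14 of 34 S phase and 3 of 38 G2/M markers were lower.

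Some partner genes were lower in all cells: 4 of 18 chaperones, 4 of 12 replacement histones and 2 of 20 transcription and processing genes. Of all genes 11.3% were lower, which is near the share in the last list, and most genes of the 3 lists were not called. ASF1B (-4.25 ± 0.46), CHAF1A (-2.15 ± 0.20), CENPA (-3.36 ± 0.45) and CCNE2 (-3.24 ± 0.32) were among the lower genes. LSM10, a component of the U7 particle that cuts histone pre-mRNA, was the 1 gene of these lists that was higher (0.92 ± 0.26). Cell type markers moved as well. Summed mesenchymal markers were at 6378 to 6871 CPM under TGFB1 and 1202 to 1937 CPM in the controls (4 of 10 genes higher), hepatocyte markers at 4569 to 5397 against 2713 to 3981 CPM although 6 of 11 tested genes were lower, gut epithelial markers at 94.4 to 112 against 705 to 740.5 CPM (5 of 7 lower), and the KRT7 epithelial markers at 7812 to 9934 against 3917 to 6417 CPM (3 of 8 higher). No gene of these 4 lists was at 0, and their part in the histone result was not tested.

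OA was compared with its own control. The histone sum was 1112.5 and 1284 CPM under OA and 1604 and 1637 CPM in the controls, and cycling cells made up 8.84% and 10.8% against 22.6% and 20.2%. The make-up of the sum differed: HIST1H4C gave 33.2% and 34.9% of the histone UMIs under OA and 76.4% and 72.5% in the controls. In all cells 17 of 53 tested members were higher and 4 lower (21.7% and 21.6% of 19366 genes), with a median log2 fold change of 0.22 beside -0.08 for all genes. A fit of these 2 groups alone gave 20 higher and 8 lower, and the replicate number as a block 10 higher and 4 lower. No share over all genes was taken for these counts. Without OA-control replicate 1 or 2 the higher members were 7, without OA replicate 1 they were 9, and without OA replicate 2 they were 5, while the lower were 4, 1, 2 and 2.

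The linker histone genes rose and HIST1H4C fell. HIST1H1E was at 188.5 and 232 CPM under OA and at 36.2 and 40.5 CPM in the controls, a log2 fold change of 2.79 ± 0.48 (adjusted p = 5.11e-04). HIST1H1C was at 165 and 166 against 60.8 and 70.7 CPM (1.67 ± 0.39, adjusted p = 0.00376). HIST1H1B (1.17 ± 0.39) and HIST1H1D (0.92 ± 0.33) completed the 4 H1 genes tested, all of them higher, but these calls were absent in 4 and 6 of their alternatives, with adjusted p up to 0.163 and 0.169.

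HIST1H4C was at 369 and 448.5 CPM under OA against 1225 and 1186 CPM (-1.23 ± 0.24, adjusted p = 0.00111). HIST3H2A (6.47 and 5.03 against 16.8 and 19.9 CPM, -1.33 ± 0.38), HIST1H2AL (-1.55 ± 0.43) and HIST1H3I (-1.83 ± 0.64) were the other members that fell. HIST1H3I rests on 12 UMIs under OA and was not called in 6 of 11 settings (adjusted p up to 0.175), and HIST3H2A and HIST1H2AL were each not called in 2 of 11. The groups did not overlap in HIST1H1E, HIST1H1C, HIST1H4C or HIST3H2A, but how many of all genes did not was not counted.

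Of the H2B genes tested, 6 of 14 were higher in all cells, 6 of 12 in other cells and 0 of 12 in cycling cells. In each class 0 were lower, and 21.7%, 23.0% and 8.46% of all genes were higher. HIST1H2BC was at 21.2 and 21.2 CPM under OA and at 6.52 and 8.98 CPM in the controls (1.80 ± 0.24, adjusted p = 8.66e-05), and its head-to-head partner HIST1H2AC at 48.7 and 47.1 against 23.7 and 34.6 CPM (1.07 ± 0.33, adjusted p = 0.0200). HIST1H2BD (1.14 ± 0.23) and HIST1H2BJ (1.06 ± 0.33) rose by about the same. Of the 12 head-to-head pairs with both partners tested, 2 of which share HIST1H2BO, HIST1H2BC and HIST1H2AC were the 1 pair in which both were higher; HIST1H2AG, the partner of HIST1H2BJ, was at -0.25 (adjusted p = 0.576). HIST2H4A, a gene with a near-identical copy, had 37 UMIs under OA and 14 in the controls (1.74 ± 0.59, adjusted p = 0.0296), a call absent in 4 of its alternatives, with adjusted p up to 0.231.

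The classes were also tested apart. In other cells 16 of 49 tested members were higher and 3 lower (23.0% and 22.1% of 18940 genes). There HIST1H1E was at 161 and 197 CPM against 28.3 and 28.4 CPM (3.03 ± 0.48, adjusted p = 2.2e-04), HIST1H2BC rose by 2.18 ± 0.26, HIST1H1C by 1.93 ± 0.40 and HIST1H1D by 1.66 ± 0.33. Leaving out OA-control replicate 2 gave 8 higher and 1 lower, leaving out OA replicate 2 gave 10 and 1, and leaving out OA replicate 1 gave 12 and 1. HIST1H4C was at 256 and 293 against 615 and 530 CPM (-0.69 ± 0.23, adjusted p = 0.0273), which was not called in 4 of the alternatives, with adjusted p from 0.00864 to 0.195. In cycling cells 8 of 47 members were higher and 2 lower (8.46% and 8.07% of 14921 genes). HIST1H1E was at 412 and 444 against 50.4 and 70.4 CPM there (2.90 ± 0.43, adjusted p = 3.72e-04) and HIST1H1B at 400 and 440 against 91.5 and 107 CPM (2.14 ± 0.43). HIST1H4C was lower (-0.86 ± 0.27, adjusted p = 0.0406), a call absent in all 5 of its alternatives, with adjusted p up to 0.266. Leaving out 1 of the 4 OA and OA-control libraries left 3 to 4 higher and 0 to 1 lower.

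Outside the clusters, H1F0 rose by 2.03 ± 0.18 in all cells (adjusted p = 4.4e-06) and H2AFJ by 1.14 ± 0.25, 2 replacement histones, while CENPA fell by 1.86 ± 0.41. Of the 18 chaperones 8 were lower, with ASF1B (-2.02 ± 0.40) and NASP (-1.96 ± 0.34), an H1 and H3-H4 chaperone, ahead, and 0 higher. Of the 20 transcription and processing genes 4 were higher and 5 lower, shares near those of all genes (21.7% and 21.6%), with SYMPK, a scaffold of the cleavage complex, at -1.23 ± 0.18. S phase markers were lower in 30 of 34 and G2/M markers in 33 of 38. Hepatocyte markers summed to 23258 to 23831 CPM under OA and 9018 to 12505 CPM in the controls (8 of 11 tested genes higher), gut epithelial markers to 10907 to 12744 against 1838 to 3501 CPM (5 of 7 higher), the KRT7 epithelial markers to 8507 to 8957 against 6325 to 6616 CPM (3 of 8 higher), and mesenchymal markers to 288.5 to 339 against 3900 to 6185 CPM (10 of 10 lower, TCF21 at 0 under OA). The part of these shifts in the histone result was not tested.

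The untreated shaker libraries, counted with the same gene list as the OA libraries, held HIST1H1E at 384 and 231 CPM, which overlap the OA libraries. HIST1H1D, at 248.6 and 164 CPM, and HIST1H1B, at 152.5 and 151 CPM, were above the OA libraries (126 and 134 CPM, and 53.6 and 77.2 CPM), HIST1H1C, at 156 and 99.03 CPM, was below them, and HIST1H4C, at 540 and 649.5 CPM, lay between OA and its control. OA against untreated and OA control against untreated were added after the values had been seen, and they share libraries with each other and with the comparison above. In all cells 0 of the 4 tested H1 genes were called between OA and untreated, in either direction. Against untreated, HIST1H1E was not called under OA in other cells (0.02 ± 0.45, adjusted p = 0.977), while HIST1H1C was higher (1.19 ± 0.39, adjusted p = 0.0266) and HIST1H1B lower (-1.16 ± 0.40, adjusted p = 0.0332) under OA; each of these 2 calls was absent in 3 of its 5 alternatives. In other cells the OA control was lower in HIST1H1E (-3.01 ± 0.48), HIST1H1B (-2.59 ± 0.42) and HIST1H2AK (-2.09 ± 0.32), each at an adjusted p of 0.0250. These were 3 of 49 members lower and 0 higher, against 0.327% and 0.0475% of all genes. In all cells 2 of 53 were lower, HIST1H1E and HIST1H2AK, and 1 higher, HIST1H4C (1.16 ± 0.24, adjusted p = 0.0491), against 0.491% and 0.0826%. The calls of the OA control against untreated are thin: HIST1H1B in other cells and HIST1H4C in all cells were called in 0 of their 5 alternatives, and HIST1H1E and HIST1H2AK only in that without untreated replicate 2.

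HIST1H2BC differed under OA from both. In other cells it was at 21.95 and 22.5 CPM under OA, 6.08 and 6.63 CPM in the OA controls and 10.96 and 7.51 CPM in the untreated libraries (OA against untreated 1.80 ± 0.26, adjusted p = 1.26e-04). In that comparison 7 of 49 members were higher and 6 lower, against 20.5% and 19.4% of all genes, with HIST1H2BJ (1.55 ± 0.37) and HIST1H2BD (1.28 ± 0.23) among the higher. In all cells 4 of 53 were higher and 2 lower, against 18.0% and 17.6%. In other cells the higher and lower members were 3 and 0 without OA replicate 1, 3 and 2 without OA replicate 2, and 4 and 3 without untreated replicate 2. In all cells the lower members were 6 without untreated replicate 2, 1 without untreated replicate 1 or OA replicate 2, and 0 without OA replicate 1.

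**Figure D4:**
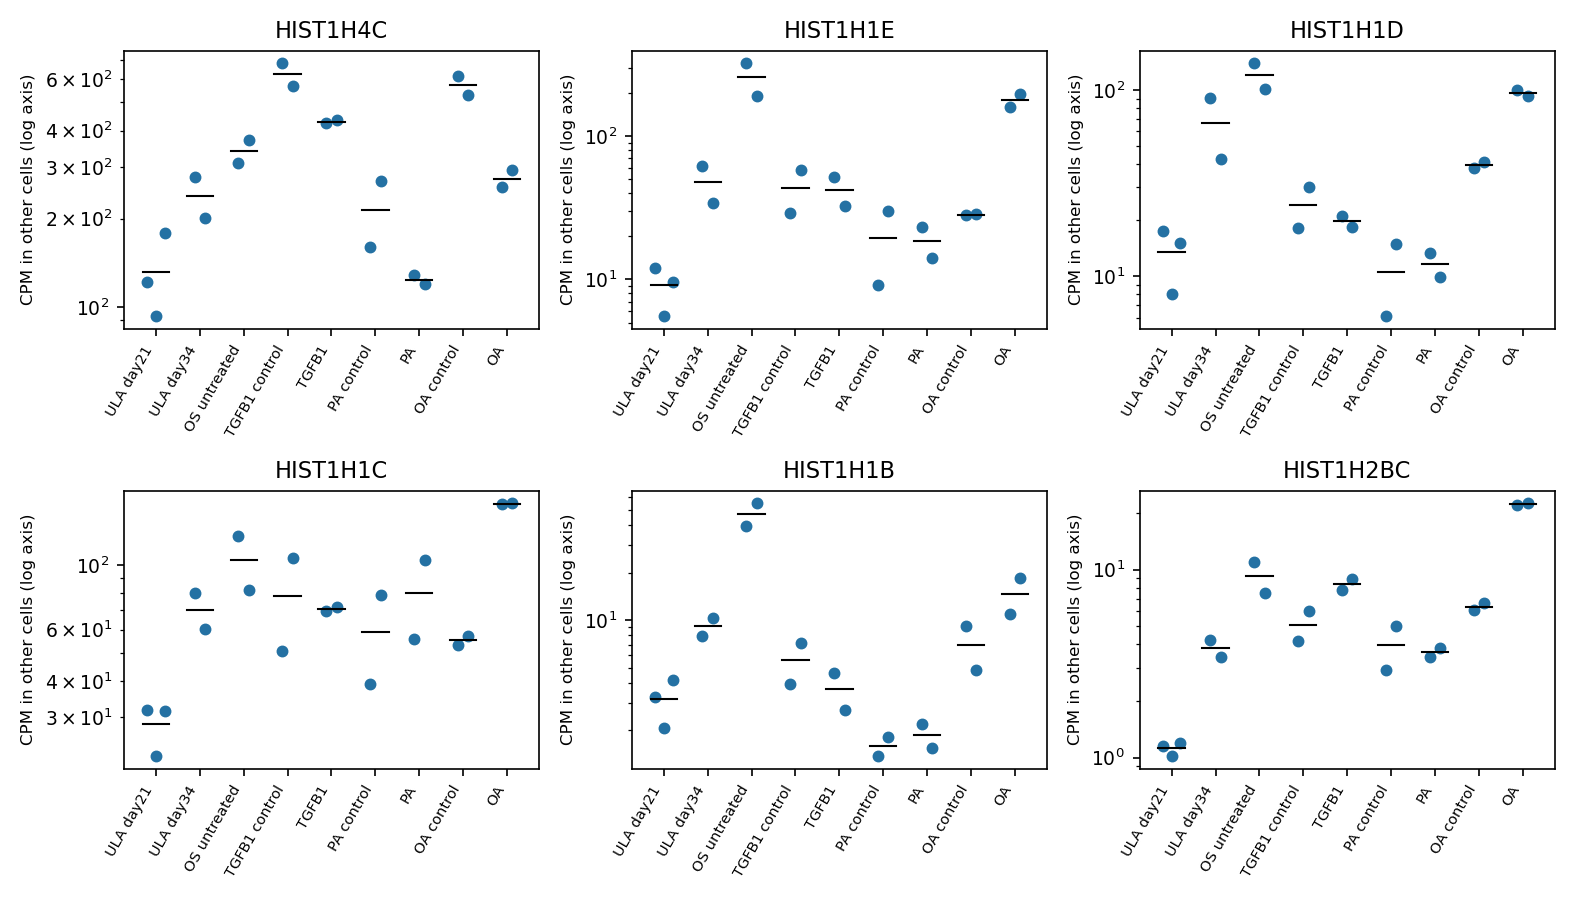
CPM in other cells (log axis) of HIST1H4C, 4 H1 genes and HIST1H2BC in each library, by group. HIST1H1E is at 161 and 197 CPM under OA, 28.3 and 28.4 CPM in its controls, and 323 and 192 CPM in the untreated libraries.

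PA was compared with its own control, and edgeR's test called no member. The histone sum was 464 and 479 CPM under PA and 513 and 803 CPM in the controls. In edgeR's test 0 of 53 members were higher or lower in all cells, 0 of 49 in other cells and 0 of 47 in cycling cells, with 2, 1 and 3 members at an unadjusted p under 0.05. Of those tested, 4, 4 and 5 had under 10 UMIs in the PA and PA-control libraries together and were tested because of counts in other shaker libraries, so these counts say little about them. HIST1H3D had 0 UMIs there in each class, as in every library of software version 3.0.2. Among all genes 0.0465%, 0.0581% and 0.0067% were higher, and 0 lower. HIST1H4C was at 180 and 167 CPM under PA and 267.0 and 427 CPM in the controls (-0.93 ± 0.24, unadjusted p = 0.00163 and adjusted p = 0.494 in edgeR's test). DESeq2 called it alone of the members in all cells. In cycling cells the histone sum was 1198 to 1606 CPM under PA and 2517 to 2808 CPM in the controls. HIST1H4C was there at 1006 and 782 against 2238 and 1891 CPM (-1.17 ± 0.28, unadjusted p = 6.29e-04 and adjusted p = 0.722 in edgeR's test). PA-control replicate 1 was the shallowest of all libraries, with 10.75 CPM of HIST1H1E against 35.8 CPM in replicate 2. The H1 genes were at 26.2 and 15.3 CPM (HIST1H1E) and at 57.2 and 103 CPM (HIST1H1C) under PA, inside or near the spread of the controls.

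**Figure D5:**
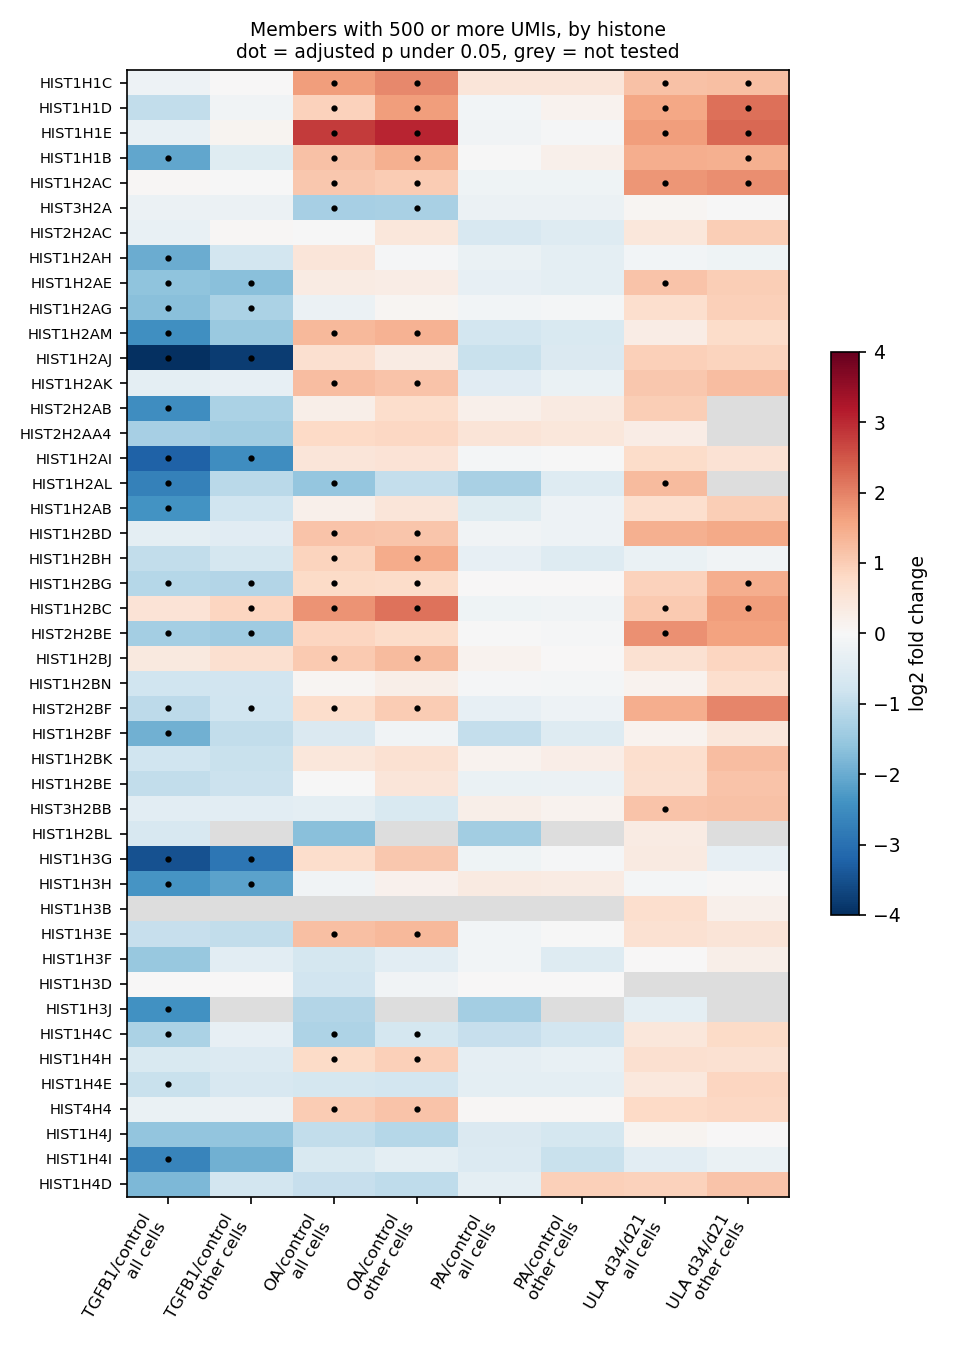
Log2 fold change of the 45 members with at least 500 UMIs in treatment and time comparisons, in colour, with calls marked. In all cells HIST1H1E is at 2.79 for OA and 1.66 for ULA day 34, and HIST1H4C at -1.25 for TGFB1 and -1.23 for OA.

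Organoids on ULA plates were compared between day 34 and day 21. The histone sum was 1887 and 1330.5 CPM on day 34 and 884, 610 and 1228 CPM on day 21, while cycling cells made up 26.1% and 36.9% of cells on day 34 and 48.9% to 53.6% on day 21. In all cells 9 of 55 tested members were higher and 0 lower (8.42% and 7.19% of 22258 genes), with a median log2 fold change of 0.65 beside 0.01 for all genes. DESeq2 called 16 higher and 0 lower, the replicate block gave 0 higher, and 22 members were at an unadjusted p under 0.05 in either direction. No share over all genes was taken for the first and last of these.

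HIST1H2AC was at 68.3 and 53.7 CPM on day 34 and at 19.5, 12.3 and 17.9 CPM on day 21 (1.75 ± 0.22, adjusted p = 0.00420). HIST1H1E was at 115 and 68.9 against 35.4, 15.4 and 29.3 CPM (1.66 ± 0.35, adjusted p = 0.0226). HIST2H2BE was at 8.09 and 9.585 against 2.54, 1.15 and 3.15 CPM (1.82 ± 0.39, adjusted p = 0.0236). The days did not overlap in these 3 genes, 2 of which are lower in cycling cells, but how many of all genes did not overlap was not counted. HIST1H1D (1.56 ± 0.40), HIST1H2AL (1.27 ± 0.33) and HIST1H1C (1.16 ± 0.26) also rose. HIST1H4C was at 1021 and 742 against 522, 391 and 866 CPM, which overlap (0.44 ± 0.35, adjusted p = 0.419).

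In other cells 7 of 40 members were higher and 0 lower (6.92% and 5.8% of 19268 genes), led by HIST1H1E at 62.2 and 34.4 CPM on day 34 against 12.01, 5.55 and 9.67 CPM on day 21 (2.31 ± 0.36, adjusted p = 0.00943) and HIST1H1D (2.19 ± 0.40). In cycling cells 19 of 54 members were higher and 0 lower (8.45% and 7.31% of 19887 genes), led by HIST1H1B (2.10 ± 0.50), HIST1H1D (1.98 ± 0.43) and HIST1H1E (1.96 ± 0.37). Over the same days 25 of 38 G2/M and 4 of 34 S phase markers were lower in all cells, and CENPA fell by 1.23 ± 0.17. No gene of the chaperone list or of the transcription and processing list was called.

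These counts rest on few libraries. With the replicate number as a block, no gene of the whole table was called. That fit estimates both days and the replicate numbers from 5 libraries, and day 21 replicate 3 has no day 34 partner. Little is left to estimate spread from, so its lack of calls says little about the days. Without day 21 replicate 1, 2 or 3 the members higher were 1, 3 and 1 in all cells, 2, 3 and 1 in other cells, and 2, 2 and 0 in cycling cells; without day 34 replicate 2 they were 17 in all cells and 18 in other cells. The day 34 organoids also had the longer dissociation. Summed hepatocyte markers were at 97.8 to 845 CPM on day 34 and 2380 to 2753 CPM on day 21 (7 of 11 tested genes lower), and gut epithelial markers at 9.98 to 114 against 1338 to 1766 CPM (5 of 7 lower), with no gene of either list at 0. Their part in the histone result was not tested.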

How the data were processed

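Each of the 19 libraries was deposited by the authors as raw UMI counts (genes by barcodes), per the file headers, which name software version 3.0.2 or 6.0.2; the second is that of the OA, OA-control and untreated libraries. The submitters' processing notes list bcl2fastq, Cell Ranger 3.0.2, Scanpy and the build GRCh38. How reads from repeated or opposite-strand sequence were counted is not given in the sources used here. No doublet caller was run; an alternative left out the cells with the most UMIs, 0.8% for each 1000 barcodes. Cells needed 500 genes and no more than 20% mitochondrial counts. Counts were summed per library and cell class, with at least 50 cells.

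Sums were tested with edgeR 4.0.16 (quasi-likelihood test, TMM scaling, genes with low counts left out, Benjamini-Hochberg adjustment over all genes tested, threshold 0.05); standard errors are the log2 fold change over the root of F and are approximate. Shaker comparisons used 1 fit over all 14 shaker libraries, and ULA 1 fit over 5. The cycling and S-share comparisons had the library as a block and left out the genes that made the split. DESeq2 1.42.0, other filters, the replicate number as a block and each library left out were alternatives. Scripts were tested on simulated data. TMM moved the median of all genes by 0.34 (log2) against plain CPM for OA in all cells, 0.20 for TGFB1 and -0.13 for ULA. For OA against untreated the shift was 0.49 in all cells and 0.54 in other cells, so a gene lower in plain CPM need not be lower in the fit. In plain CPM no called member changed sign.

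The text names the 10 members with the highest mean CPM, the 6 largest and 6 smallest cycling differences among members with at least 500 UMIs, up to 6 called members per direction and comparison, all H1 members, and up to 4 called genes of each list. Members in other statements were picked with their values seen. The members and the gene lists were chosen with earlier results of these data known.

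In all cells the deviations of same-numbered libraries correlated at -0.42 for TGFB1, 0.14 for PA, 0.06 for OA and -0.24 and -0.32 for ULA. In a group of 2 libraries the deviations mirror each other, so each shaker comparison gives 1 value only. These values cannot settle whether libraries were paired.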

Additional observations from a re-analysis of the deposited data

How the results depend on the processing

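Every member called in a comparison was followed through its alternatives. Of 2416 such values 1978 kept direction and call, 438 kept the direction without the call, and 0 reversed. Cycling against other cells gave 1031 of the 1978 and 10 of the 438. Values with and without the call were 189 and 42 for TGFB1 and 145 and 65 for OA, both in all cells. For ULA day 34 in cycling cells they were 37 and 77. For OA control against untreated they were 2 and 13, in all cells and again in other cells. Shares over all genes are given for the main fits only, so a member count in an alternative may follow the power of that fit. For TGFB1 in all cells the replicate block called 3144 genes and 19 members lower, against 4295 and 21 without a block. Leaving out a library of a group of 2 leaves 1, which is assumed to vary like the other groups. With each library left out in turn (value with all libraries in parentheses), TGFB1 in all cells gave 10 to 23 lower members (21) and 0 to 1 higher, in other cells 4 to 12 lower (9) and 0 to 2 higher (1), and in cycling cells 0 to 5 lower (2). OA gave 5 to 9 higher (17) and 1 to 4 lower (4) in all cells, 8 to 12 higher (16) and 1 to 2 lower (3) in other cells, and 3 to 4 higher (8) and 0 to 1 lower (2) in cycling cells. ULA day 34 gave 1 to 17 higher (9) in all, 1 to 18 higher (7) and 0 to 1 lower (0) in other, and 0 to 27 higher (19) in cycling cells. OA against untreated gave 0 to 6 lower (2) in all cells, and 3 to 8 higher (7) and 0 to 4 lower (6) in other cells; OA control against untreated gave 0 higher (1) and 0 to 2 lower (2) in all cells and 0 to 2 lower (3) in other cells. The S-share comparison gave 3 to 5 higher (3).

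The replicate block, where numbers only name the libraries, gave 10 higher members for OA in all cells and 1 lower in cycling cells, 0 higher for ULA in all 3 classes, and 0 higher and 0 lower for OA control against untreated. For ULA the block leaves little to estimate spread from in 5 libraries, so its lack of calls says little. Without the library block the S-share comparison had 0 higher and 2 lower members, and with shaker libraries only 1 lower. In fits of the 2 groups alone TGFB1 had 0 higher members in other cells, and OA had 8 lower in all and 6 lower in other cells. Without a filter on low counts OA had 5 lower in other cells and ULA 14 higher in all cells. DESeq2 gave 1 lower member for PA in all cells, and 16 and 13 higher for ULA in all and other cells. Cells thinned to equal depth gave 18 higher in cycling cells (34), with 24 members testable and both TGFB1 libraries left out. TGFB1 pairs deviated in opposite directions; with crossed numbers as a block 4155 genes were called in all cells and 4374 in other cells (4295 and 4302 without a block), and 21 and 9 members were lower.

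Depth limited the members with few counts: 15 had under 100 UMIs in all, and the TGFB1 cycling cells were 107 and 69.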
